A study of Mus musculus with 18 samples.

Results

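Intraflagellar transport (IFT) is the traffic that builds and maintains cilia, and the BBSome is a protein coat that travels with it. Their genes were followed across arrays of sorted inner ear cells from newborn mice. The set lists 36 genes by symbol, with 7 of the IFT-B core, 6 of the IFT-B periphery, 6 of IFT-A, 7 BBSome subunits, the BBSome recruiting GTPase Arl6, 2 chaperonin-like assembly factors, 4 dynein-2 subunits and 3 subunits of heterotrimeric kinesin-2. Every array probe annotated to these symbols was looked up, and each gene was represented by 1 probe, the one with the highest mean signal among those detected at p under 0.01 on 2 or more arrays. This left 32 of the 36 genes, among 12002 genes tested in all. Arl6 had no probe under its symbol, and the probes of Ift46, Wdr19 and Bbs10 were detected on fewer than 2 arrays. Of the 32 measured genes, 24 were detected on all 18 arrays.

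All samples came from Atoh1/nGFP mice on a C57BL/6 background at postnatal day 1, whose transgene marks hair cells with a green fluorescent protein (GFP) in the nucleus. Cells of the vestibular system and of the cochlea were sorted separately into hair cells (HCs, carrying both GFP and CD326, a protein of epithelial cell surfaces), epithelial non-HCs (ENHCs, CD326 without GFP, named ENSCs in the sample labels) and non-epithelial cells (NECs, negative for both), with n = 3 arrays for each of the 6 groups. Each replicate pooled the inner ears of several mice, the gate fixes GFP and Epcam (the gene of CD326) between the populations, and the ENHCs hold sensory and nonsensory epithelium together. No group was treated or carried a mutation.

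Between 16668 and 19564 probes were detected per array, and with 3 arrays a group precision is limited. Correlations across genes, which are not independent replicates, were 0.940 to 0.986 within groups and at most 0.959 between groups. All 14 hair cell markers were detected in vestibular HCs and in cochlear HCs, against 3 or 4 in each of the other 4 groups, where Atoh1, Pou4f3 and Myo7a were not detected on any array. Of 8 neuron markers, 6 were detected in vestibular HCs and 5 in cochlear HCs. In ENHCs 1 of them was detected in the vestibular system and 3 in the cochlea. Nefl, Nefm, Snap25, Elavl4 and Isl1 of this list were detected on all 6 HC arrays. Tubb3, detected on only 2 arrays in all, and Stmn2 were not detected in HCs of either organ. None of 8 endothelial markers was detected in HCs.

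An IFT train is made of IFT-B, which heterotrimeric kinesin-2 carries towards the tip of the cilium, and IFT-A, which returns with dynein-2 to the base. The BBSome rides on these trains and moves membrane proteins out of and within the cilium. A hair cell carries a true cilium, the kinocilium, beside its stereocilia, and in mammals the kinocilium is kept in the vestibular organs and withdrawn in the cochlea as hearing matures. RFX transcription factors bind promoters of many ciliary genes at the X-box, an imperfect palindrome whose arms read GTTGCC or, on the other strand, GGCAAC.

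The promoters of the members were therefore read for this 6-base arm. RefSeq promoters of the mouse build GRCm38.p6, taken as 250 bases before and 50 after the gene start, were held for 32 of the 36 listed genes, and not for Ift80, Ift81, Ift122 and Dync2li1. The arm was found on either strand in 12 of these 32 genes, and in 12.5% of all 32851 promoters of the same length. A complete spaced motif, GTTNCC followed after 2 bases by GGNAAC with N for any base, reads the same on both strands and can hold the 6-base arm. With this spacing of 2 bases it was found in 1 member, Bbs7, and in 0.451% of all promoters. Other spacings were not counted. In the Ift57 stretch below, a GGNAAC arm follows the second GTTGCC after 1 base and is left in small letters. The study found the RFX motif on promoters of genes high in HCs, taken from these arrays together with its RNA-seq. It also reported the motif in HC data of other studies, and RFX binding at many of these promoters in a cell line. As these arrays entered that choice, the counts here are a description and not independent evidence, and a match is not a binding site. In the 6 genes below the arm lies before the start. The stretch is printed 5′ to 3′ on the strand of the gene, with the matched bases in capitals, to show how the arm sits in each.
Bbs7, chr3:36613457-36613550, minus strand: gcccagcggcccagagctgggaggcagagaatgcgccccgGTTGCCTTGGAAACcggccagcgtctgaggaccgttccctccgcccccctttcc
Ift140, chr17:25015937-25016022, plus strand: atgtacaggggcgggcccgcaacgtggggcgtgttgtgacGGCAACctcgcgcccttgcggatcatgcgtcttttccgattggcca
Kif3a, chr11:53567231-53567316, plus strand: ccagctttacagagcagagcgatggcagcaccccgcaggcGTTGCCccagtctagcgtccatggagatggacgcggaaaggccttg
Ift57, chr16:49699167-49699279, plus strand: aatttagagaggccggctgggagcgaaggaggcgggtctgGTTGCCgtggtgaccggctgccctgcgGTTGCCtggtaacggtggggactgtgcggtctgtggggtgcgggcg
Traf3ip1, chr1:91494549-91494634, plus strand: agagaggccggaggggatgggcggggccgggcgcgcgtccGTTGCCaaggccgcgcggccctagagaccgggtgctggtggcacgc
Ift27, chr15:78174082-78174130, minus strand: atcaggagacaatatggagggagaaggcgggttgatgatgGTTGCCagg

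Counting the first transcribed base as position 1 and the base before it as -1, the arm begins at position -121 in Bbs7, -109 in Ift140, -98 in Kif3a, -79 in Traf3ip1 and -9 in Ift27, and in Ift57 at -87 and again at -60. In the other 6 genes it lies at the start or within 50 bases after it. It begins at position 1 in Ift172, 2 in Bbs1, 22 in Ift88, 37 in Dync2h1, 41 in Wdr35 and 43 in Bbs5. These 6 include Dync2h1, Ift172 and Bbs5, the members with the largest differences between HCs and ENHCs, and only the arm and its nearest bases are printed.
Ift172, chr5:31291099-31291124, minus strand: tcgcactcacGTTGCCtgtgcgtcag
Bbs1, chr19:4906611-4906636, minus strand: ggctgagctgGTTGCCaaggcgacgc
Ift88, chr14:57424082-57424107, plus strand: agtcgcgcctGGCAACggctgggcgt
Dync2h1, chr9:7177009-7177032, minus strand: gacggagcttGGCAACtgctgagt
Wdr35, chr12:8974031-8974050, plus strand: ggcggcggtgGTTGCCaggc
Bbs5, chr2:69647203-69647220, plus strand: aagccggcgcGTTGCCtt

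The comparison of HCs with ENHCs asks which of these genes distinguish hair cells from their neighbours in the epithelium. Over both organs most of them were higher in HCs. At an adjusted p under 0.05 (limma, Benjamini-Hochberg over 12002 genes, 2-sided), 27 of the 32 genes were higher in HCs than in ENHCs and 1 was lower, against 22.3% higher and 25.1% lower among all genes tested. Of the higher genes, Wdr35 and Bbs1 were detected on HC arrays alone and Ift122 on 1 array outside HCs, so they passed the detection filter through HCs. Ttc21b, the lower gene, passed it through ENHCs and NECs alone. The calls of these genes are therefore not independent of the filter. The median difference of the 32 genes was 0.94 on the log2 scale, or 0.82 with genes undetected on one side at their bounds, while that of all genes was -0.03. In 20 of the 32 genes every HC array lay above every ENHC array, as in 10.4% of all genes. Values are log2 intensities after background correction, so that a difference of 1 is a doubling, and in sorted populations fewer cells of a type and less RNA per cell cannot be told apart. Markers listed for other cells also moved between the populations. The 8 neuron markers summed to 2707 to 3914 in HCs and to 300.3 to 1638 in ENHCs, with 4 of them called higher in HCs and 1, Stmn2, lower. In ENHCs Isl1 averaged 9.46 and Stmn2, the next of the 8, 5.55. Schwann cell and glia markers summed to 186 to 651 in HCs and to 1048 to 1408 in ENHCs, with 5 of 6 lower in HCs. Sox10 (9.34) and Erbb3 (8.44) had the highest ENHC means of the 6. Mesenchyme markers summed to 530 to 1053 in HCs and to 1066 to 2546 in ENHCs, with 6 of 10 lower and 1 higher. The higher one, Pdgfra (1.59 ± 0.26), had the highest HC mean of the 10, 8.78. Single genes thus weigh heavily in these sums, which do not measure the named cells alone. The part of other cells in the differences was not tested.

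**Figure D1:**
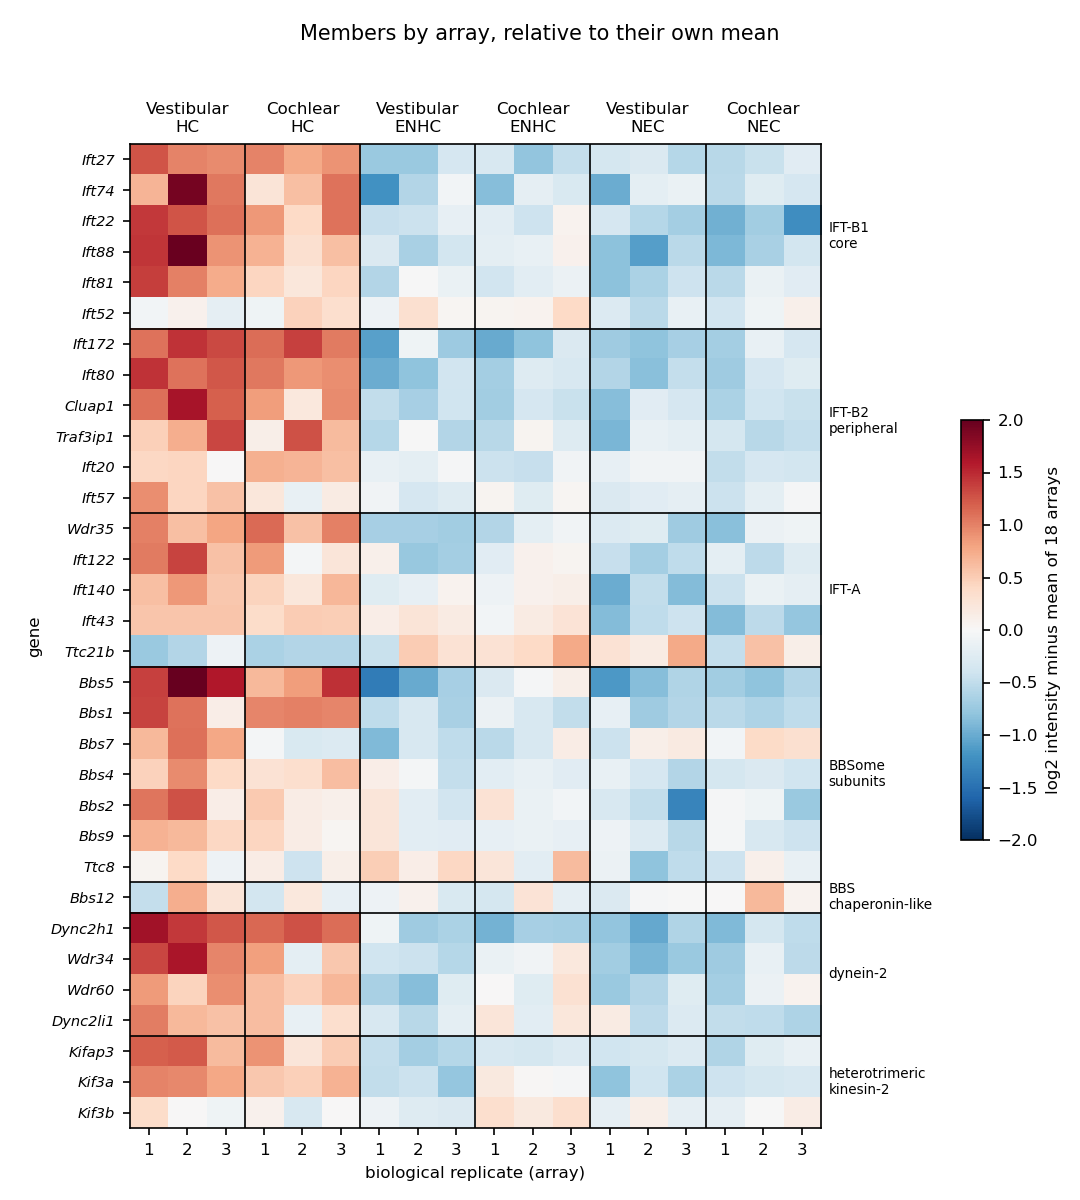
Log2 intensity of each of the 32 measured genes (rows, ordered by subcomplex and then by the difference between HCs and ENHCs) on each of the 18 arrays (columns), minus the mean of that gene over the 18 arrays. Red cells lie above that mean and blue cells below it. The 6 HC columns at the left are red for most genes, and Ttc21b is the reverse.

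All 6 genes of the IFT-B periphery were higher in HCs than in ENHCs, with a median difference of 1.29. Ift172, the largest IFT-B protein, needed in the alga Chlamydomonas for trains to turn round at the ciliary tip, read 8.72, 9.07 and 8.95 in vestibular HCs and 8.76, 9.0 and 8.67 in cochlear HCs, against 6.54, 7.55 and 6.91 in vestibular ENHCs and 6.63, 6.83 and 7.34 in cochlear ENHCs. Its lowest HC array stood above its highest ENHC array by more than the range within either HC group. The difference was 1.90 ± 0.17 (SE, adjusted p = 2.84e-08 by limma), or 3.72-fold. Ift80, another peripheral subunit, was at 8.89, 8.53 and 8.68 in vestibular HCs and 8.50, 8.32 and 8.38 in cochlear HCs, against 6.46, 6.64 and 7.07 in vestibular ENHCs and 6.77, 7.19 and 7.13 in cochlear ENHCs. Again HC and ENHC arrays did not overlap, and the difference was 1.67 ± 0.14 (adjusted p = 1.11e-08 by limma), or 0.80 with the mean of its kept probes, the other of which was detected on 2 arrays. The other 4 were Cluap1 (1.49 ± 0.16), Traf3ip1 (1.08 ± 0.21), Ift20 (0.70 ± 0.12), which also works at the Golgi, and Ift57 (0.50 ± 0.13), the only one of the 6 with overlapping arrays.

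In the IFT-B core 5 of 6 measured genes were higher in HCs than in ENHCs and Ift52 was not called. Ift27, a Rab-like GTPase that links the trains to the BBSome, read 9.20, 8.94 and 8.89 in vestibular HCs and 8.94, 8.70 and 8.84 in cochlear HCs, against 7.19, 7.19 and 7.61 in vestibular ENHCs and 7.62, 7.16 and 7.46 in cochlear ENHCs. The HC arrays spread over less than the gap to the ENHC arrays, and the difference was 1.54 ± 0.13 (adjusted p = 1.05e-08 by limma). Ift74, which binds tubulin cargo together with Ift81, read 8.75, 9.99 and 9.14 in vestibular HCs and 8.34, 8.69 and 9.17 in cochlear HCs, against 6.87, 7.49 and 8.02 in vestibular ENHCs and 7.22, 7.89 and 7.78 in cochlear ENHCs. Its vestibular arrays were spread over more than those of Ift27 in both populations. With a difference of 1.47 ± 0.24 (adjusted p = 4.77e-05 by limma) it was higher in HCs, with no overlap of arrays. Ift22, another Rab-like GTPase (1.29 ± 0.15), Ift88, a scaffold subunit (1.24 ± 0.17), and Ift81 (0.94 ± 0.14) completed the called core genes, all without overlap. Ift52, which holds the core together, averaged 6.94 ± 0.26 in HCs and 6.98 ± 0.19 in ENHCs (SD, n = 6 each, both organs pooled), a difference of -0.04 ± 0.14 (adjusted p = 0.848 by limma).

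IFT-A was mixed, with 4 of 5 measured genes higher in HCs than in ENHCs and 1 lower. Wdr35, a subunit of the IFT-A body, had detected signal on the 6 HC arrays but not on any ENHC array. It read 6.30, 5.88 and 6.08 in vestibular HCs and 6.42, 5.87 and 6.29 in cochlear HCs, against undetected readings of 4.6 to 4.62 in vestibular ENHCs and 4.70 to 5.21 in cochlear ENHCs. Against the lowest intensity at which probes were detected it was at least 1.64-fold higher in HCs (adjusted p = 1.28e-06 by limma). Its other kept probe, detected on 4 arrays, gave 0.25 ± 0.22 and was not called (adjusted p = 0.373 over all probes by limma), nor in either organ. Ift122, of the same body, read 6.28, 6.60 and 5.84 in vestibular HCs and 6.10, 5.21 and 5.49 in cochlear HCs, where the array at 5.21 did not detect it. In ENHCs it read 5.34, 4.49 and 4.56 in the vestibular system and 5.02, 5.33 and 5.30 in the cochlea, and only the vestibular array at 5.34 detected it. The difference of 0.91 ± 0.18 (adjusted p = 4.01e-04 by limma) thus set detected levels mostly against undetected ones. Ift140 (0.59 ± 0.13) and Ift43 (0.35 ± 0.12) were higher by less, both without overlap, and Ift43 lost its call without the first cochlear ENHC array (adjusted p = 0.0522).

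Ttc21b, whose protein takes part in retrograde transport and in the Hedgehog pathway, was the only member lower in HCs. It was not detected on any HC array, with readings of 4.49, 4.64 and 5.13 in vestibular HCs and 4.59, 4.64 and 4.64 in cochlear HCs. In vestibular ENHCs it read 4.78, 5.74 and 5.51, of which the array at 4.78 did not detect it, and in cochlear ENHCs 5.52, 5.63 and 5.99. ENHCs stood at least 1.20-fold above HCs (fitted log2 difference -0.84 ± 0.20, adjusted p = 0.00160 by limma), and 1 vestibular ENHC array overlapped the HC range. This gene has 1 probe, so its call rests on that probe.

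Among the BBSome subunits 6 of 7 were higher in HCs than in ENHCs. Bbs5, the subunit that binds phosphoinositides, read 7.96, 8.59 and 8.20 in vestibular HCs and 7.25, 7.43 and 8.06 in cochlear HCs, against 5.19, 5.58 and 5.93 in vestibular ENHCs and 6.30, 6.57 and 6.71 in cochlear ENHCs, where only the array at 5.19 did not detect it. HC and ENHC arrays did not overlap in either organ. The difference over both organs was 1.87 ± 0.17, or 3.65-fold (adjusted p = 4.10e-08 by limma), and 1.15 without background correction or from the deposited value table. Bbs1, which contacts the recruiting GTPase, was detected on 5 of 6 HC arrays and on no ENHC array. Its readings were 6.45, 6.19 and 5.25 in vestibular HCs, the last not detected, and 6.08, 6.12 and 6.09 in cochlear HCs, against 4.46 to 4.78 in vestibular ENHCs and 4.61 to 4.99 in cochlear ENHCs. It was at least 1.52-fold higher in HCs (adjusted p = 3.41e-06 by limma). Bbs7 (0.72 ± 0.16), Bbs4 (0.66 ± 0.14), Bbs2 (0.59 ± 0.22) and Bbs9 (0.51 ± 0.13) rose by less, and of these only Bbs4 had no overlapping arrays. Bbs2 lost its call on leaving out the first cochlear HC array, the second or the third ENHC array of either organ, or the first or second vestibular HC array, with an adjusted p of 0.0615 to 0.0910. Ttc8, the seventh subunit, averaged 6.51 ± 0.27 in HCs and 6.76 ± 0.30 in ENHCs (SD, n = 6 each) and was not called (adjusted p = 0.261 by limma).

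Both motors were represented. All 4 dynein-2 genes were higher in HCs than in ENHCs, and the largest difference among all members was that of Dync2h1, the motor heavy chain. It read 9.97, 9.71 and 9.53 in vestibular HCs and 9.44, 9.57 and 9.42 in cochlear HCs, against 8.21, 7.59 and 7.67 in vestibular ENHCs and 7.35, 7.63 and 7.61 in cochlear ENHCs. Every HC array was above every ENHC array, by 1.93 ± 0.14 on average, or 3.81-fold (adjusted p = 2.28e-09 by limma). The intermediate chains Wdr34 (1.08 ± 0.17) and Wdr60 (0.94 ± 0.16) and the light intermediate chain Dync2li1 (0.64 ± 0.16) followed. Of kinesin-2, Kifap3, the accessory subunit, was at 10.96, 11.004 and 10.40 in vestibular HCs and 10.67, 10.01 and 10.28 in cochlear HCs, against 9.29, 9.09 and 9.19 in vestibular ENHCs and 9.45, 9.41 and 9.50 in cochlear ENHCs. No arrays overlapped, and the difference was 1.23 ± 0.14 (adjusted p = 8.01e-07 by limma). The motor subunit Kif3a was higher by 0.99 ± 0.12, whereas its partner Kif3b averaged 7.09 ± 0.22 in HCs and 7.11 ± 0.29 in ENHCs (SD, n = 6 each) and was not called (-0.02 ± 0.12, adjusted p = 0.892 by limma). Bbs12, the measured chaperonin-like factor, was not called either (0.13 ± 0.19, adjusted p = 0.626 by limma).

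Of the 28 measured genes with a promoter entry, 23 were higher in HCs and 5 were not. The 6-base arm printed above was found in 12 of the 23 and in none of the 5, Ift52, Ttc8, Bbs12, Kif3b and Ttc21b. That none of these 5 holds it says only that the letters are not in this window.

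Within each organ the same question was asked with 3 arrays a side. In the vestibular system 25 of 32 genes were higher in HCs than in ENHCs and none was lower, against 17.1% higher and 17.9% lower among all genes, with a median difference of 1.34 (1.26 with bounds). In the cochlea 16 were higher and 1 was lower, against 17.1% and 19.6% of all genes, with a median of 0.58. Arrays of HCs lay wholly above those of ENHCs in 27 genes in the vestibular system and in 21 in the cochlea, compared with 20.2% and 22% of all genes. In the cochlea they lay wholly below in 2 genes, against 25.1% of all genes, namely Ttc21b and Kif3b, whose cochlear difference was not called (-0.37 ± 0.18, adjusted p = 0.118 by limma). By their calls, 15 genes were higher in both organs, 10 in the vestibular system without a call in the cochlea and 1, Ift20, in the cochlea without a call in the vestibular system (0.99 ± 0.17 in the cochlea and 0.41 ± 0.17 in the vestibular system). Another Ift20 probe was called in the vestibular system too (0.49 ± 0.16, adjusted p = 0.0227 over all probes by limma), and its remaining probe in neither organ. Ift172 and Dync2h1 differed nearly alike in both, by 1.92 ± 0.24 and 1.91 ± 0.20 in the vestibular system and by 1.87 ± 0.24 and 1.95 ± 0.20 in the cochlea. The 1 gene lower in the cochlea was Ttc21b, at least 1.37-fold. In the vestibular system it was not called (adjusted p = 0.112 by limma), though it was called lower with the replicate number as a block (adjusted p = 0.0423 with the replicate block) or without the first vestibular ENHC array (adjusted p = 0.0243). At an unadjusted p under 0.05 limma likewise counted 1 gene lower in the vestibular system, against 22.5% of all genes, and an unmoderated model 0. Of the 16 calls in the cochlea those of Ift74, Ift81, Bbs4, Traf3ip1 and Kif3a were lost on leaving out at least 1 array, with adjusted p-values of up to 0.121, and each of the 6 cochlear HC and ENHC arrays cost at least 1 of them. Ift88, at 0.62 ± 0.24 in the cochlea, just missed the threshold (adjusted p = 0.0501 by limma). Its other probe was called there (0.74 ± 0.27, adjusted p = 0.0436 over all probes by limma). The replicate block called Ift88 (adjusted p = 0.0485) and Wdr60 (adjusted p = 0.0158) higher in cochlear HCs and Ift43 higher in vestibular HCs (adjusted p = 0.0438).

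**Figure D2:**
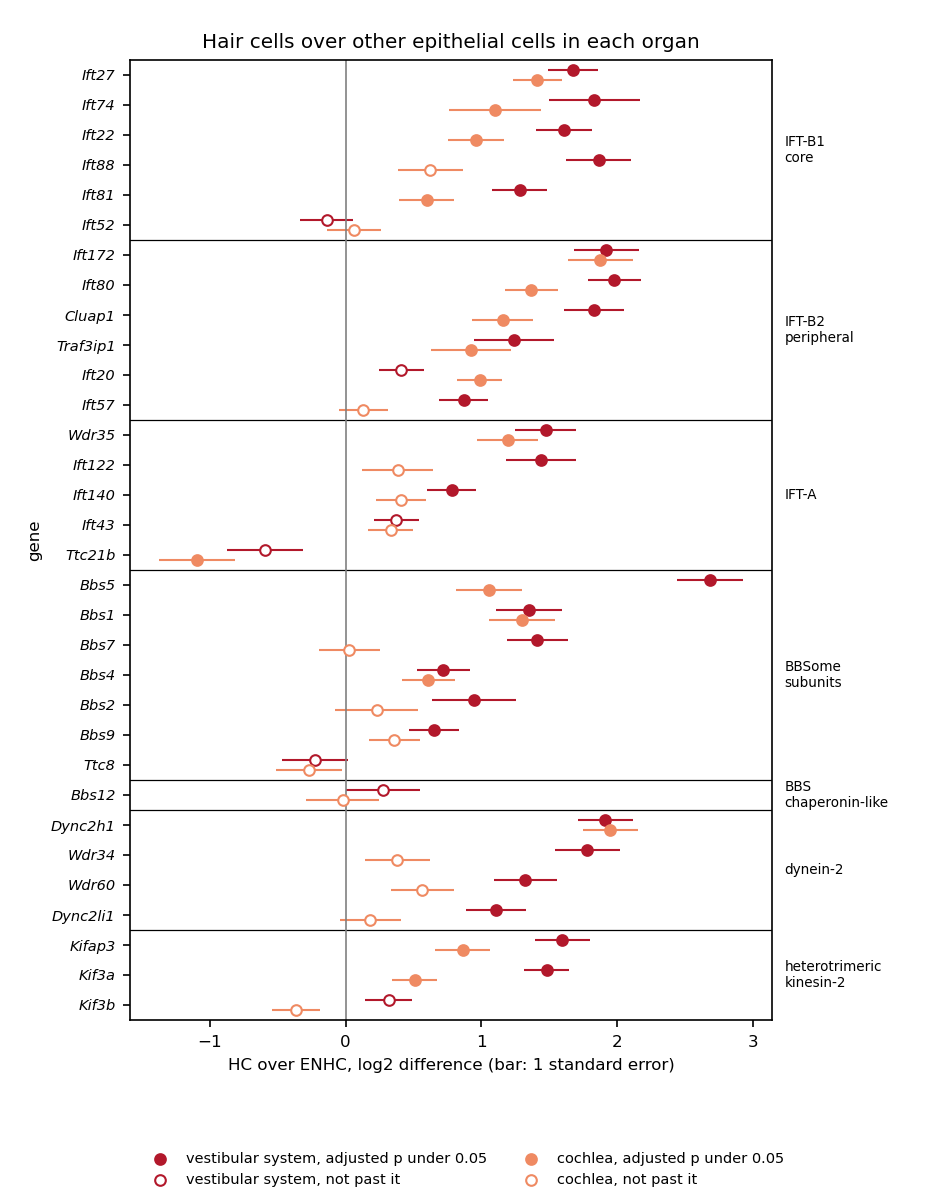
Log2 difference of HCs over ENHCs for each of the 32 genes in the vestibular system (dark red) and in the cochlea (light red), with bars of 1 standard error. Filled points passed an adjusted p of 0.05. Most dark points lie to the right of the light ones, and Ttc21b lies below 0 in both organs.

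A call in 1 organ alone does not show that the organs differ, so the difference between the organs in the HC to ENHC difference was tested itself. It was larger in the vestibular system in 5 of 32 genes and smaller in none, against 6.33% larger and 4.56% smaller among all genes, and its median over the 32 genes was 0.63. Markers listed for other cells differed between the organs as well. Of 12 markers listed for epithelium without hair cells, 11 were detected in vestibular HCs (summed intensity 6198 to 8905) and 6 in cochlear HCs (5547 to 6704). Epcam, on which HCs were also sorted, Cdh1 and Sox2 averaged 10.4, 11.4 and 10.1 in HCs, so these sums are not those of other cells alone. The test of the organ difference called 4 of these 12 larger in the vestibular system and 1 smaller. Sox2, among the 4, was itself higher in HCs than in ENHCs (1.46 ± 0.17, adjusted p = 8.52e-07 by limma). Mesenchyme markers summed to 530 to 603 in vestibular HCs, with 4 of 10 detected, and to 927 to 1053 in cochlear HCs, with 3 detected. Of the 10, 3 were called larger and 3 smaller. Pdgfra, among the smaller (-2.66), averaged 8.78 in HCs, above Col1a2, the next, at 6.22. It was itself higher in HCs than in ENHCs (1.59 ± 0.26, adjusted p = 4.02e-05 by limma), so these sums do not measure mesenchyme alone. Neuron markers summed to 300.3 to 570 in vestibular ENHCs, where only Isl1 was detected, and to 1084 to 1638 in cochlear ENHCs. The test called 2 of these 8 larger, Isl1 and Stmn2. Isl1 was detected on all 6 ENHC and all 6 HC arrays, averaging 9.46 and 9.96. The ENHC sums are thus mostly those of Isl1 and do not measure neurons alone. The part of other cells in the organ difference was not tested. At an unadjusted p under 0.05 limma counted 15 genes larger and 1 smaller, against 12.1% and 9.52% of all genes, and the unmoderated model the same 15 and 1. The replicate block gave 8 larger, adding Ift57 (adjusted p = 0.0373), Ift122 (0.0461) and Dync2li1 (0.0139), and leaving out the first cochlear HC array also gave 8.

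The 5 genes were Bbs5, Bbs7, Wdr34, Ift88 and Kif3a. In Bbs5, whose arrays are given above, HCs exceeded ENHCs by 2.68 ± 0.24 in the vestibular system and by 1.05 ± 0.24 in the cochlea, a difference of 1.63 ± 0.34 (adjusted p = 0.00330 by limma), or 0.95 without background correction. Its mean in HCs was 8.25 ± 0.32 in the vestibular system and 7.58 ± 0.43 in the cochlea, and in ENHCs 5.57 ± 0.37 and 6.53 ± 0.21 (SD, n = 3 each). Both the higher HC level and the lower ENHC level of the vestibular system entered the difference.

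Bbs7, a propeller subunit of the BBSome, read 7.19, 7.65 and 7.32 in vestibular HCs against 5.67, 6.22 and 6.03 in vestibular ENHCs, and 6.51, 6.25 and 6.27 in cochlear HCs against 6.01, 6.23 and 6.70 in cochlear ENHCs. The vestibular HCs stood alone above the other groups, whereas cochlear HCs and ENHCs overlapped. HCs exceeded ENHCs by 1.41 ± 0.23 in the vestibular system and by 0.03 ± 0.23 in the cochlea, a difference of 1.38 ± 0.32 (adjusted p = 0.00696 by limma).

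Wdr34, the dynein-2 intermediate chain, read 7.38, 7.68 and 7.02 in vestibular HCs against 5.65, 5.61 and 5.48 in vestibular ENHCs, and 6.86, 5.85 and 6.59 in cochlear HCs against 5.92, 5.97 and 6.26 in cochlear ENHCs. The second cochlear HC array was below all 3 cochlear ENHC arrays. The HC to ENHC difference was 1.78 ± 0.24 in the vestibular system and 0.38 ± 0.24 in the cochlea, and these differed by 1.40 ± 0.34 (adjusted p = 0.00897 by limma), or by 0.76 without background correction.

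Ift88 read 8.39, 8.95 and 7.86 in vestibular HCs against 6.68, 6.33 and 6.61 in vestibular ENHCs, and 7.67, 7.29 and 7.57 in cochlear HCs against 6.77, 6.83 and 7.06 in cochlear ENHCs. HCs were above ENHCs in both organs, by 1.86 ± 0.24 and by 0.62 ± 0.24, and the difference of 1.24 ± 0.34 (adjusted p = 0.0225 by limma) was lost on leaving out the second cochlear HC, the third cochlear ENHC, the second vestibular HC or the second vestibular ENHC array, with an adjusted p of 0.0544 to 0.0634. A second Ift88 probe gave 1.35 ± 0.39 (adjusted p = 0.0327 over all probes by limma).

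Kif3a read 9.33, 9.30 and 9.12 in vestibular HCs against 7.84, 7.91 and 7.56 in vestibular ENHCs, and 8.88, 8.81 and 9.03 in cochlear HCs against 8.53, 8.35 and 8.31 in cochlear ENHCs. The ENHC levels of the organs lay further apart than their HC levels. The difference between the organs was 0.97 ± 0.23 (adjusted p = 0.00836 by limma), but its other 2 kept probes gave 0.59 ± 0.32 and 0.06 ± 0.31, and their mean with the chosen probe gave 0.54 (adjusted p = 0.164).

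**Figure D3:**
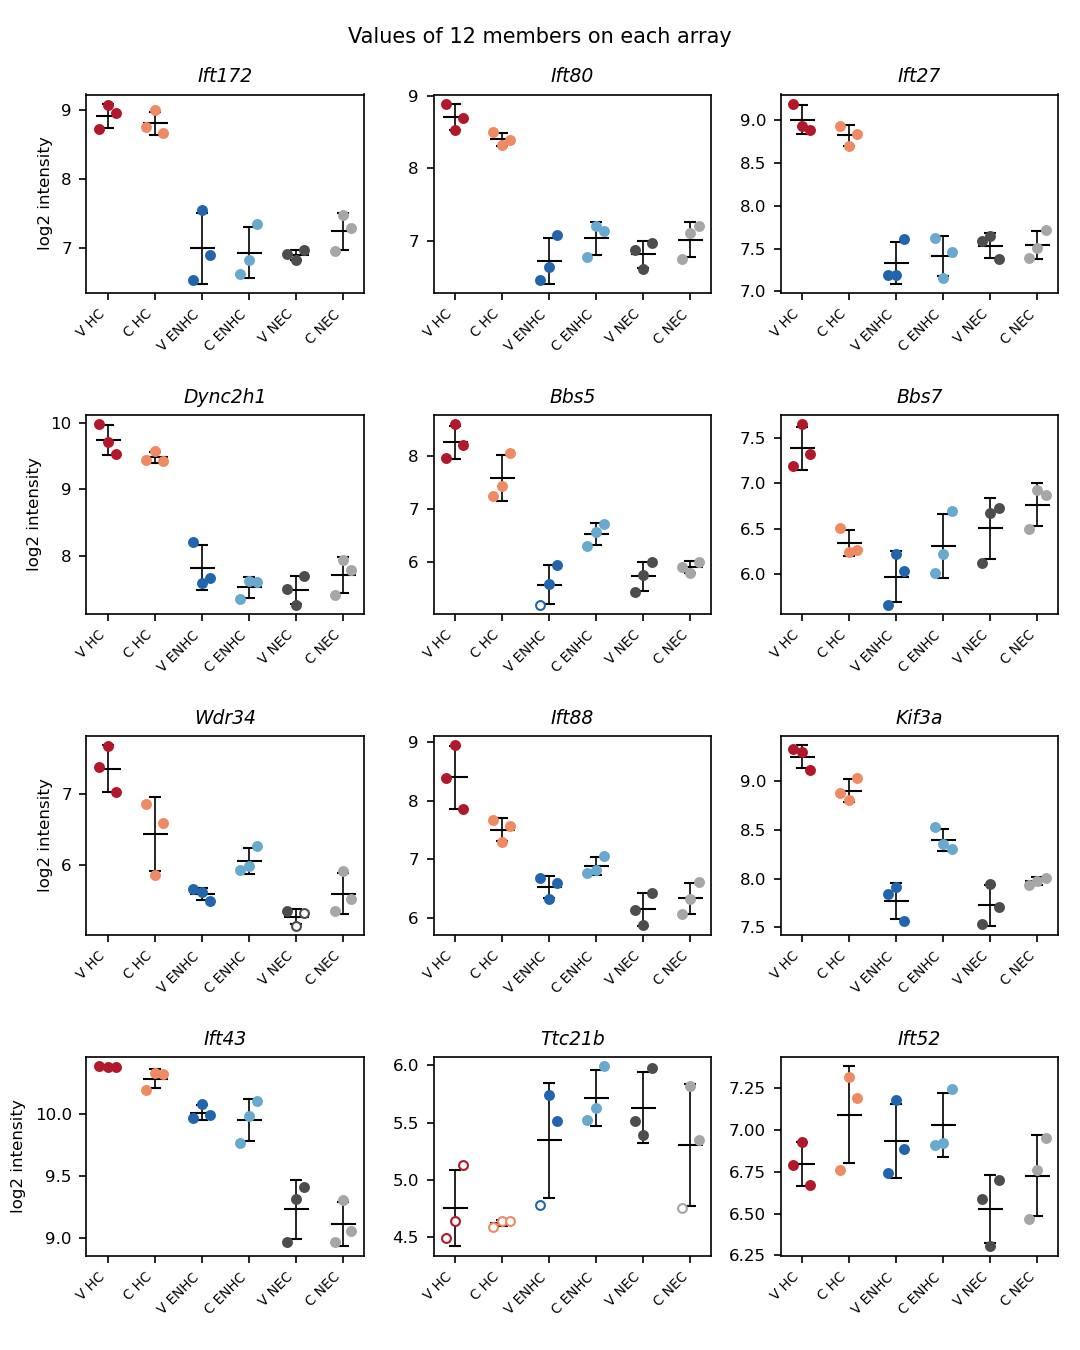
Log2 intensity of 12 members on each array, by group, with V for the vestibular system and C for the cochlea. Filled points were detected at p under 0.01 and open points were not, and the black marks are the mean and SD of 3 arrays. Bbs7 is high in vestibular HCs alone, Ttc21b is open on all 6 HC arrays, and Ift52 overlaps between the populations.

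Set directly against each other, vestibular HCs were higher than cochlear HCs in 5 of 32 genes and lower in none, against 8.17% higher and 6.29% lower among all genes. The 5 were Bbs7 (1.04 ± 0.23), Wdr34 (0.93 ± 0.24), Ift88 (0.89 ± 0.24), Ift81 (0.68 ± 0.20) and Ift57 (0.57 ± 0.18), and the median of the 32 genes was 0.29. The second Ift88 probe gave 0.51 ± 0.27 here and was not called (adjusted p = 0.291 over all probes by limma). Vestibular HCs had the highest mean of the 6 groups in 24 of the 32 genes, compared with 16.3% of all genes, and cochlear HCs in 4. At an unadjusted p under 0.05 limma counted 12 genes higher and 1 lower, against 13.0% and 12.1% of all genes, and the unmoderated model 13 and 1. The count of 5 fell to 1 without the second cochlear HC array, to 2 without the second and to 3 without the first vestibular HC array, and to 1 when only the 6 HC arrays were fitted, Bbs7 being that gene in both of these fits with 1.

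Vestibular ENHCs were lower than cochlear ENHCs in 2 genes, Bbs5 (-0.96 ± 0.24, adjusted p = 0.0131) and Kif3a (-0.63 ± 0.16, adjusted p = 0.0155 by limma), and higher in none, against 5.61% higher and 5.52% lower among all genes. Either call was lost on leaving out 1 of 2 arrays, with adjusted p-values of 0.0698 and 0.0764 for Bbs5 (without the third cochlear or the first vestibular array) and of 0.0759 and 0.0803 for Kif3a (without the first cochlear or the third vestibular array). With the replicate block Wdr60 was lower in vestibular ENHCs as well (adjusted p = 0.0278). At an unadjusted p under 0.05 limma and the unmoderated model each counted 0 genes higher and 4 lower, where limma gave 9.87% higher and 12% lower among all genes. Between vestibular and cochlear NECs no gene was called by limma in either direction, against 3.35% higher and 2.91% lower among all genes. At an unadjusted p under 0.05 limma counted 0 higher and 1 lower there, against 8.68% and 8.16% of all genes, and the unmoderated model 2 and 1. The median vestibular over cochlear difference of the 32 genes was -0.17 in ENHCs and -0.12 in NECs.

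**Figure D4:**
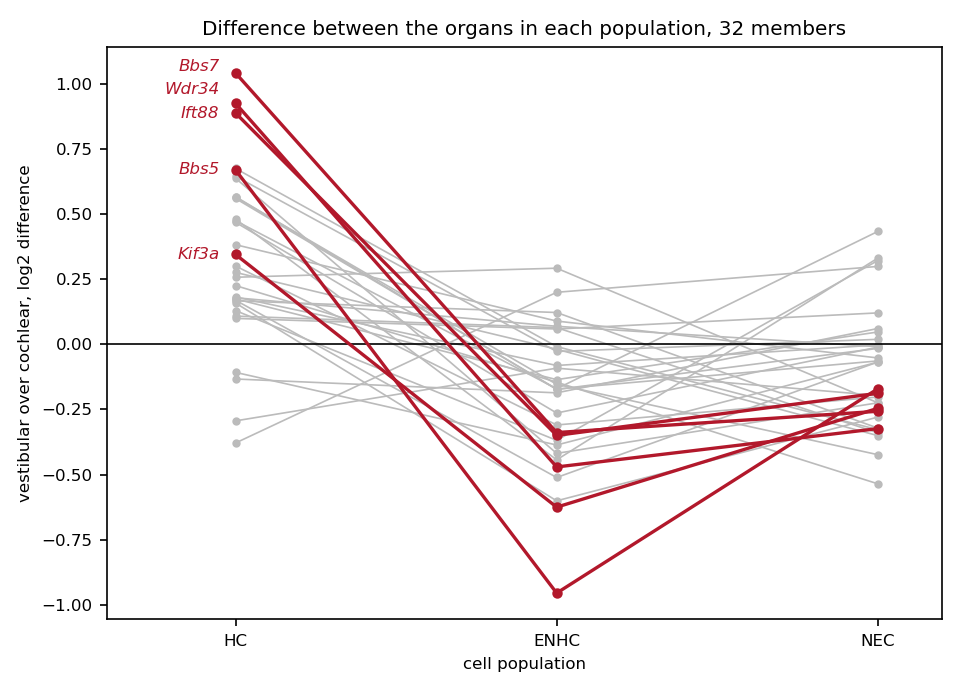
Vestibular over cochlear log2 difference of each of the 32 genes in HCs, ENHCs and NECs, with 1 line a gene. Red lines are the 5 genes in which the HC to ENHC difference was larger in the vestibular system. All 5 lie above 0 in HCs and below 0 in ENHCs.

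Against NECs, the cells outside the epithelium, 26 of 32 genes were higher in HCs and 1 was lower, against 28.4% higher and 29.3% lower among all genes. The median difference was 1.14, or 1.06 with genes undetected on one side at their bounds. This comparison shares the HC arrays with the one above. The largest differences were those of Bbs5 (2.11 ± 0.17, adjusted p = 4.65e-09, and 1.28 without background correction), Dync2h1 (2.01 ± 0.14, adjusted p = 7.42e-10) and Ift172 (1.79 ± 0.17, adjusted p = 3.79e-08 by limma). In NECs Bbs5 read 5.44, 5.74 and 6.00 in the vestibular system and 5.90, 5.78 and 6.01 in the cochlea, below all 6 HC arrays. Dync2h1 read 7.50, 7.27 and 7.70 in vestibular NECs and 7.41, 7.94 and 7.79 in cochlear NECs. Ift172 read 6.92, 6.83 and 6.97 in vestibular NECs and 6.96, 7.48 and 7.30 in cochlear NECs. All of these lay below the HC arrays given above. Ttc21b was again the lower gene, by at least 1.15-fold (adjusted p = 0.00237 by limma), being detected on 5 of 6 NEC arrays at 5.35 to 5.98.

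In ENHCs 5 of 32 genes were higher than in NECs and 1 was lower, against 16.2% higher and 16.4% lower among all genes, with a median difference of 0.12. The share of higher genes was thus near that of all genes. Ift43, a small IFT-A subunit, had the largest of these differences. It read 10.39 on each vestibular HC array and 10.20, 10.34 and 10.32 in cochlear HCs, 9.97, 10.08 and 9.99 in vestibular ENHCs and 9.77, 9.99 and 10.10 in cochlear ENHCs, and 8.96, 9.32 and 9.41 in vestibular NECs and 8.96, 9.31 and 9.05 in cochlear NECs. The order was the same in both organs, and no ENHC array overlapped a NEC array. ENHCs exceeded NECs by 0.82 ± 0.12 (adjusted p = 1.49e-05 by limma), more than HCs exceeded ENHCs (0.35 ± 0.12).

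Ttc8, a repeat-containing BBSome subunit, read 6.96, 6.61 and 6.88 in vestibular ENHCs and 6.72, 6.25 and 7.11 in cochlear ENHCs, against 6.35, 5.68 and 5.96 in vestibular NECs and 6.06, 6.57 and 6.32 in cochlear NECs, a difference of 0.60 ± 0.17 with overlapping arrays (adjusted p = 0.0111 by limma). Ift140 (0.48), Ift22 (0.48) and Ift88 (0.47) were the other 3 higher genes, of which Ift88 lost its call under 17 of 30 alternatives. Without the third cochlear ENHC array 3 genes were higher, and the replicate block gave 7, adding Ift52 (adjusted p = 0.0343) and Bbs2 (adjusted p = 0.0189). Bbs7 was the gene lower in ENHCs, with the ENHC arrays given above against 6.12, 6.67 and 6.73 in vestibular NECs and 6.49, 6.92 and 6.87 in cochlear NECs (-0.49 ± 0.16, adjusted p = 0.0230 by limma). That call was lost without any of 6 arrays, namely the first ENHC array of either organ or the second or the third NEC array of either organ, with adjusted p-values of 0.0539 to 0.0678.

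Ift52, Bbs12 and Kif3b were called in no comparison without the replicate block. Ift52 read 6.79, 6.93 and 6.67 in vestibular HCs and 6.76, 7.31 and 7.19 in cochlear HCs, and 6.30 to 7.25 over the 12 other arrays. Bbs12 read 6.69, 7.89 and 7.42 in vestibular HCs and 6.79, 7.38 and 7.0 in cochlear HCs, and 6.81 to 7.81 elsewhere. Kif3b read 7.45, 7.08 and 6.99 in vestibular HCs and 7.17, 6.76 and 7.08 in cochlear HCs, and 6.79 to 7.41 elsewhere. With both organs together the HC arrays of each of the 3 genes overlapped those of the other populations.

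More than 1 probe was kept for 20 of the 32 genes, 69 kept probes in all. Of the 37 probes not chosen, 27 were higher in HCs than in ENHCs over both organs by limma at an adjusted p under 0.05 across all kept probes with 1 symbol. In 15 of the 20 genes all probes gave the same call over both organs, and in no gene did probes give opposite calls. In the other 5, Ift20, Ift80, Ift140, Wdr35 and Wdr60, at least 1 kept probe was not called. Within the organs fewer did, 11 of the 20 in the cochlea and 13 in the vestibular system, so the split of calls between the organs depends on the probe.

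A further 33 genes of the same pathway were listed, among them other subunits of IFT and the BBSome. Of these, 28 were measured, of which 19 were higher in HCs than in ENHCs over both organs (median 0.70), against 22.3% of all genes. Dynlrb2, a dynein light chain of the roadblock family, averaged 11.06 ± 0.26 in HCs and 6.18 ± 0.30 in ENHCs (SD, n = 6 each), a difference of 4.88 ± 0.15 (adjusted p = 6.37e-15 by limma). Rab3ip, which activates the ciliary GTPase Rab8, averaged 10.46 ± 0.24 in HCs and 7.81 ± 0.41 in ENHCs, a difference of 2.65 ± 0.15 (adjusted p = 6.65e-11).

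The transition zone is the gate at the base of the cilium. Of its 21 measured genes (24 listed), 12 were higher in HCs than in ENHCs and 2 lower (median 1.03). Among all genes 22.3% were higher and 25.1% lower. Tmem107 was at 9.48 ± 0.42 in HCs and 6.82 ± 0.56 in ENHCs (difference 2.66 ± 0.26). Nphp4 was detected on the 6 HC arrays and on 0 of 6 ENHC arrays, a difference of at least 2.41-fold, so its place among the other genes of the list is not settled. The axoneme and motile cilium genes build the microtubule core and its motors. Of these, 44 of 48 measured (55 listed) were higher (median 1.84 of fitted differences), beside the same 22.3% of all genes. Many of them, such as Cfap43, Cfap52, Cfap65, Spag6l, Dnah6, Ccdc40 and Lrrc6, were detected on HC arrays alone and so passed the detection filter only through HCs. In Dnah1, Dnah9 and Tekt3, also called higher, the bound did not exceed 1-fold. For such genes the filter itself favours a higher level in HCs, so this count and median are a description. Cfap65 was detected on the 6 HC arrays and nowhere else and was at least 24.5-fold higher in HCs than in ENHCs, and Cfap45 averaged 10.31 ± 1.25 in HCs and 5.36 ± 0.18 in ENHCs (difference 4.95 ± 0.16), detected on 2 of 6 ENHC arrays. The median of the 32 members lay between those of the first list and the transition zone.

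**Figure D5:**
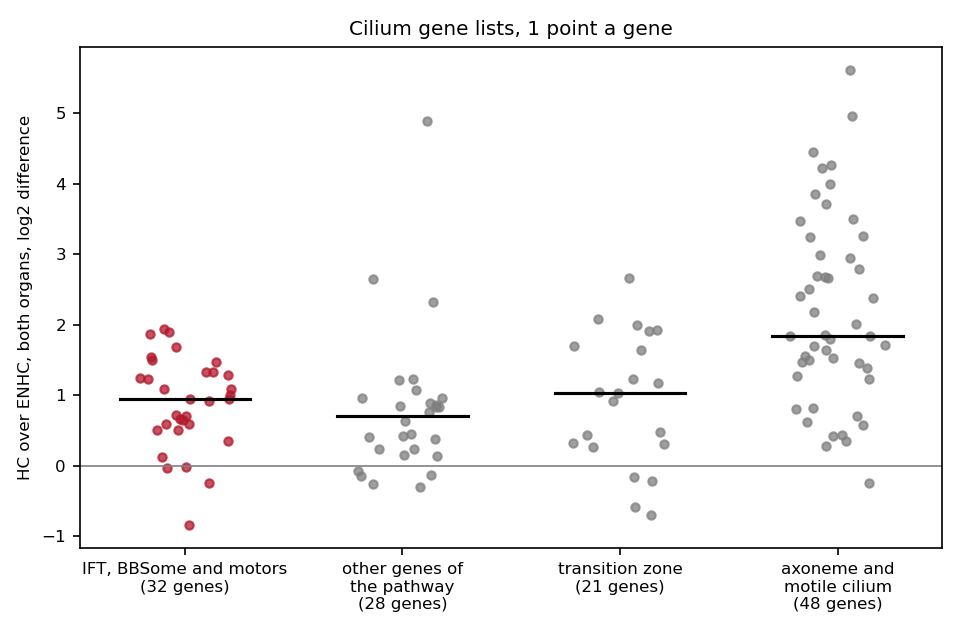
Log2 difference of HCs over ENHCs over both organs for the 32 measured members and for 3 other lists of cilium genes, with 1 point a gene and a black line at the median of each list. The sideways position within a list has no meaning. Genes undetected in ENHCs are drawn at their fitted difference, which is no measured fold. The members reach at most 1.93, while Tmem107 of the transition zone lies at 2.66 and Dynlrb2 of the further pathway genes at 4.88.

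The HC to ENHC difference was larger in the vestibular system in 28 of the 48 axoneme genes. It was larger in 3 of the 28 further pathway genes and in 3 of the 21 transition zone genes, against 6.33% of all genes. Vestibular HCs were higher than cochlear HCs in 29 axoneme genes, 5 further pathway genes (1 lower) and 3 transition zone genes. Among all genes 8.17% were higher and 6.29% lower. Some axoneme genes passed the detection filter through a few HC arrays alone, namely 2 for Dnah1 and 3 each for Dnah9, Tekt3 and Zmynd10. The axoneme counts are therefore not independent of the filter. Beside these lists the members had 5 of 32 in either comparison. The lists were compared by these counts only, with no test of the difference between them.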

How the data were processed

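RNA from the 18 sorted populations was pre-amplified (NuGEN Ovation V2), labelled with biotin and hybridised to Illumina MouseRef-6 v2.0 BeadChips. The authors deposited for each probe and array a signal intensity from Bead-Studio with no normalization between arrays and, beside it, a detection p-value, which sets the probe against the negative controls. The authors also deposited a value table of intensity values, which was used as an alternative. Tested against the signals after quantile normalization, it differed by at most 0.289%. The platform annotation gives 34885 of the 45281 probes 1 gene symbol, 18 of them several and 10378 none, and RefSeq changed 0 symbols.

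Signals were corrected by normexp, whose background was inferred through the detection p-values (limma 3.58.1, R 4.3.3), an offset of 16 was added, arrays were quantile-normalized and values taken to log2. Probes detected at p under 0.01 on 2 or more arrays were kept (24352, of which 20146 carry 1 symbol), and each gene took its kept probe with the highest mean signal, which gave 12002 genes, 5126 of them with several kept probes. A linear model with 1 mean for each of the 6 groups was fitted to all 18 arrays, as the study's analysis of variance also used all of them, with empirical Bayes moderation, 2-sided tests and Benjamini-Hochberg adjustment over the 12002 genes at 0.05. Differences are log2 values ± SE and depend on the offset for dim genes. A gene undetected on every array of a side is given as a bound, "at least", against the lowest normalized intensity among detected probes on each array or its own value where higher. The p-values measure the spread between pooled replicates, not between mice. Marker sums are normalized intensities less the offset. On simulated data with genes changed by known amounts the fit was tested before use.

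Full values by array were given for the 2 largest HC to ENHC differences of each subcomplex with 4 or more measured genes and the largest of smaller ones, genes lower in HCs, the 5 smallest adjusted p-values of the difference between organs, and the 3 largest called differences against NECs. Of the other lists the 2 largest fitted differences among those called were named. The members and lists were chosen with earlier results of these data known.

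Replicate numbers pair the samples of HCs with ENHCs in each organ, from the data: deviations from the group means of same-numbered arrays correlated at over 0.1 in every pair (0.26 to 0.51 in the cochlea, 0.12 to 0.32 in the vestibular system). Over all 15 pairs of groups this held in 11, with correlations of -0.013 to 0.505. For 17 of the 18 arrays their own replicate number correlated best. The main fit had no replicate block. The alternatives were other background, offset, normalization, filter, probe and model choices, a replicate block, and leaving out each array. No genome sequence was used beyond the RefSeq promoter table.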

Additional observations from a re-analysis of the deposited data

Results flagged for a closer look

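In 5 genes the difference between HCs and ENHCs itself differed between the organs, being larger in the vestibular system than in the cochlea at an adjusted p under 0.05 by limma. The log2 value of that difference was 1.63 for Bbs5, 1.38 for Bbs7, 1.40 for Wdr34, 1.24 for Ift88 and 0.97 for Kif3a. In each of these genes all 3 vestibular HC arrays lay above all 3 vestibular ENHC arrays. Over 30 alternatives the adjusted p ran up to 0.0256 for Bbs5, 0.0255 for Bbs7, 0.0308 for Wdr34, 0.0634 for Ift88 and 0.164 for Kif3a. Groups of 3 arrays were too small for a search for single outlying arrays.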

How the results depend on the processing

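No alternative reversed the direction of a called gene. The counts for HCs over ENHCs in both organs (26 to 27 higher and 1 lower on leaving out any 1 array) and for HCs over NECs (26 to 27 and 1) stayed within 1.5 times under all 30 alternatives. In the cochlea 12 to 17 genes were higher and 1 lower on leaving out 1 array, and 2 were lower with the mean of kept probes or with array weights. In the vestibular system 23 to 26 were higher and 0 to 1 lower, and 1 was lower with the replicate block. For ENHCs over NECs 3 to 6 were higher and 0 to 1 lower on leaving out 1 array, 3 higher without background correction or from the deposited value table, and 8 with array weights. For vestibular over cochlear HCs 1 to 6 were higher, 3 with median scaling and 1 with only the groups compared. Between vestibular and cochlear ENHCs 1 to 2 were lower, and 1 without background correction, from the deposited value table or with only the groups compared. Between NECs 1 was lower with array weights. The difference between organs gave 4 to 8 genes on leaving out 1 array, 8 with array weights and 8 with the replicate block, and 1 smaller gene, Ift20 (adjusted p = 0.0448), without background correction or from the deposited value table. The cause of these shifts was not tested.

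Beyond the calls given in the report, the replicate block called Bbs5 (adjusted p = 0.0141) and Cluap1 (0.0412) higher in vestibular than cochlear HCs and Ift52 (0.0374) higher in HCs than in NECs, comparisons in which vestibular HC numbers did not pair with the others, and it changed no other call. The log2 difference of HCs over ENHCs ran over 1.42 to 2.03 for Ift172, 1.51 to 2.03 for Dync2h1 and 1.15 to 1.96 for Bbs5. With 3 arrays a group, small differences could not be told from the spread. Dim members, such as Wdr35, Ift122, Bbs1 and Ttc21b, lay near background on many arrays, so their differences depend on the background and the offset: without background correction the HC to ENHC difference was 0.52 for Wdr35 and 0.52 for Bbs1, and in the vestibular system 0.81 for Bbs7 and 0.96 for Wdr34, with no call of these lost.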
